A study of Homo sapiens with 2 samples.

Results

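The snoRNA host and cancer-linked lncRNA genes are a list of 35 genes whose main product is a long noncoding RNA (lncRNA). The 22 snoRNA host genes are the SNHG genes SNHG1, SNHG3 to SNHG12, SNHG14 to SNHG22, and GAS5 and ZFAS1. The other 13 are lncRNA and microRNA host genes studied in cancer, namely DANCR, NEAT1, MALAT1, MIR17HG, PVT1, MEG3, HOTAIR, H19, TUG1, NORAD, FTX, OIP5-AS1 and EPB41L4A-AS1. A gene was taken to have a peak when its exact symbol stood among the gene features that the authors listed at that peak. By this rule 8 of the 35 genes had a peak and 27 had none, and the 8 genes held 9 of the 1900 peaks in the table.

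The peaks came from ChIP-seq in CAL27, an established human tongue carcinoma line, infected with lentivirus to express the zinc finger factor KLF7 with a myc tag. The ChIP library was 1 sample precipitated with the anti-MYC antibody D3N8F, and the input was 1 sample of the same chromatin without antibody. Neither was replicated, and control cells lacking the tagged factor were not analysed here. The antibody is directed at MYC, so fragments held by myc-KLF7 and by the cells' own MYC cannot be told apart.

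Small nucleolar RNAs (snoRNAs) guide the chemical modification and processing of ribosomal RNA, and in mammals most are cut out of the introns of longer host transcripts. For the SNHG genes the spliced host RNA codes for little or no protein, and many of these genes start with the pyrimidine tract that also marks ribosomal protein genes. NEAT1 is the scaffold of nuclear paraspeckles, MALAT1 is an abundant nuclear RNA of splicing speckles, and MIR17HG carries the microRNA cluster led by miR-17, a known target of MYC. KLF factors bind GC-rich boxes and MYC with its partner MAX binds the E-box CACGTG.

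The stretches around 4 summits are shown because they hold an E-box, or in MIR17HG a related word, close to the summit. Capitals mark CACGTG (SNHG4, SNHG15, SNHG17) and CATGTG (MIR17HG), and all are the plus strand of GRCh38. The SNHG4 stretch is chr5:139274139-139274168, the SNHG15 stretch chr7:44986409-44986469, the SNHG17 stretch chr20:38434957-38435017 and the MIR17HG stretch chr13:91349097-91349157.
SNHG4: tgcggagctccgaaCACGTGcgcgtgagta
SNHG15: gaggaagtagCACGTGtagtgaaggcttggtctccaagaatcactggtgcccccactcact
SNHG17: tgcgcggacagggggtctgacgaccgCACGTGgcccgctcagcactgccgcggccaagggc
MIR17HG: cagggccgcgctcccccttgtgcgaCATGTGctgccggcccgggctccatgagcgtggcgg

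The stretches around the summits of SNHG5 and MALAT1 hold a short GC box and no E-box. Other member peaks also had a short GC box within 100 bp of the summit, SNHG4 and SNHG15 together with an E-box. Capitals mark GGGCGG in chr6:85679065-85679125 for SNHG5 and chr11:65497492-65497552 for MALAT1, again on the plus strand of GRCh38.
SNHG5: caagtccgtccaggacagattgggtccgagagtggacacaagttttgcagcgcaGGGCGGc
MALAT1: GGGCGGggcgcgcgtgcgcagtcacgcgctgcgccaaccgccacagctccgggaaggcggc

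A peak stood at 5 of the 22 snoRNA host genes (22.7%, 95% Wilson interval 10.1 to 43.4%), which were SNHG1, SNHG4, SNHG5, SNHG15 and SNHG17. Among the other genes it stood at 3 of 13 (23.1%, 8.18 to 50.3%), which were NEAT1, MALAT1 and MIR17HG, and NEAT1 had 2 peaks. The shares of the 2 groups lay within each other's intervals. Over all genes, 0.572% of the 18866 lncRNA genes in GENCODE v44 and 6.19% of the 20033 protein-coding genes had an entry under their symbol. The list was drawn up with these peaks known, so its 22.9% (12.1 to 39.0%) is a description of the list. Many lncRNA genes carry other names in the older annotation behind the table, and a count by position avoids this. By position, a summit lay within 2000 bp of the canonical transcript start at the same 8 members and at none of the other 27, against 1.62% of lncRNA genes and 5.05% of protein-coding genes.

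Each peak is described by its pileup, the ChIP fragments counted at the summit, and by its fold enrichment, the pileup over the local background with 1 added to each. The intervals given for both are exact Poisson intervals, and like the Wilson intervals they cover counting error only. The q-value is the authors' adjusted Poisson p, which compares the 2 libraries and not conditions.

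SNHG15, an lncRNA that hosts SNORA9, had the strongest peak of the list. At chr7:44986263-44986695 it held 34 fragments (23.5 to 47.5) and a fold enrichment of 10.9 (7.68 to 15.2) over a background of 2.20 fragments. It ranked 120 of 1900 by q-value (-log10 q 24.0) and 30 by fold enrichment, and 1.58% of all peaks were as enriched or more. The entry of SNHG15 was an intron, and SNORA9 had a promoter entry at the same peak although the summit was at -929 bp from its start, where negative values are upstream. The summit was +522 bp from the canonical start, +257 bp from the RefSeq start and +121 bp from the nearest annotated transcript start. It lay in an exon of GENCODE v44, so the feature depends on the transcript chosen. No protein-coding gene was listed at this peak, and the summit was -7406 bp from the nearest start of one, that of the myosin gene MYO1G.

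SNHG1 hosts a row of box C/D snoRNAs, and its peak was the one with a promoter entry of a protein-coding gene as well. The peak at chr11:62855957-62856233 held 15 fragments (8.40 to 24.7) and a fold enrichment of 7.72 (4.54 to 12.4), with -log10 q 8.87 and rank 407. The promoter entries were SNHG1, SNORD22, SNORD25, SNORD26, SNORD27, SNORD28 and SLC3A2, and the table names SLC3A2 as the nearest gene. SLC3A2 encodes the heavy chain of the amino acid transporter complex with SLC7A5, and it is transcribed away from SNHG1 on the other strand. The summit was -170 bp from the SNHG1 start and -10 bp from the SLC3A2 start, so the peak cannot be given to either gene. The snoRNA entries lay downstream of it in order, from SNORD25 (summit at -460 bp) through SNORD26 (-726 bp), SNORD27 (-1009 bp) and SNORD28 (-1397 bp) to SNORD22 (-1807 bp).

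SNHG5, host of SNORD50B, had a broad and shallow peak at chr6:85678862-85679408 with 11 fragments (5.49 to 19.7) and a fold enrichment of 5.61 (3.04 to 9.68). It ranked 1066 by q-value (-log10 q 4.45). The entries were promoters of SNHG5 and SNORD50B, and the summit stood at -347 bp from the canonical start and -163 bp from the nearest transcript start. The summit was -35032 bp from the nearest protein-coding start, that of the RNA-binding protein gene SYNCRIP, and no protein-coding gene was listed at the peak.

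SNHG17, host of the SNORA71 family, had a peak of 559 bp at chr20:38434872-38435430. It held 17 fragments (9.90 to 27.2), a fold enrichment of 4.71 (2.85 to 7.38) and -log10 q 4.78. Its background of 2.83 fragments was above the median of 1.57 over all peaks, which lowers the fold enrichment at a given pileup. The background was also above that median at SNHG15 (2.20), MALAT1 (2.64) and the NEAT1 peaks (2.74 and 2.83). The entries were an intron of SNHG17 and the promoter of SNORA71D, with the summit at +394 bp from the SNHG17 start and -989 bp from SNORA71D.

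SNHG4 had the weakest peak by q-value, at chr5:139274013-139274208, with 10 fragments (4.80 to 18.4), a fold enrichment of 4.28 (2.26 to 7.55) and -log10 q 2.40. It ranked 1725 of 1900. The entry was an exon of SNHG4, and the same peak had exon and 5' untranslated region entries of MATR3, a nuclear matrix protein gene that starts at the same place and runs the same way. The summit was +22 bp from both starts. SNORA74A and SNORA74D lie inside SNHG4, and neither had an entry.

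NEAT1 had 2 peaks, on either side of its start. The upstream peak at chr11:65422229-65422461 held 17 fragments (9.90 to 27.2) and a fold enrichment of 4.82 (2.92 to 7.55), with its summit at -465 bp and a promoter entry. The downstream peak at chr11:65422828-65423146 held 15 fragments (8.40 to 24.7) and a fold enrichment of 4.18 (2.46 to 6.73), with its summit at +213 bp and an exon entry. The intervals of the 2 peaks overlapped, and their ranks by q-value were 906 and 1357.5. MALAT1, which lies near NEAT1 on chromosome 11, had a promoter peak at chr11:65497354-65497622 of like size, with 17 fragments (9.90 to 27.2), a fold enrichment of 4.95 (3.0 to 7.75) and rank 879. Its summit was -118 bp from the canonical start and -216 bp from the RefSeq start, and no protein-coding gene was listed at any of the 3 peaks. The protein-coding start nearest to NEAT1 was that of FRMD8, with the NEAT1 summits at +35405 and +36083 bp from it.

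MIR17HG had the strongest peak among the genes that host no snoRNA. The peak at chr13:91348989-91349452 held 21 fragments (13.0 to 32.1) and a fold enrichment of 8.61 (5.48 to 12.9), with -log10 q 12.9 and rank 246, and 4.53% of all peaks were as enriched or more. The summit was +1430 bp from the canonical start, the farthest of the list, but +9 bp from the start of another annotated transcript. The entry of MIR17HG itself was an intron. The promoter entries belonged to MIR17, MIR18A, MIR19A and MIR20A, whose hairpins begin further along, with the summit at -1478, -1624, -1764 and -1938 bp from them. MIR19B1 and MIR92A1, the last hairpins of the cluster, had no entry.

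The main mature arm of each microRNA of this cluster is shown because these are the microRNA products of MIR17HG, and the arms fall into 4 seed families. Capitals mark the seed, bases 2 to 8, and the sequences are from RefSeq. The first pair share a seed, miR-18a-5p differs from it, the pair after that share another, and miR-92a-3p has its own.
hsa-miR-17-5p: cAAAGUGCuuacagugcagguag
hsa-miR-20a-5p: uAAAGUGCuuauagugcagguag
hsa-miR-18a-5p: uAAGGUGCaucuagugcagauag
hsa-miR-19a-3p: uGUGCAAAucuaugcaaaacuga
hsa-miR-19b-3p: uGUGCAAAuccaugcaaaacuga
hsa-miR-92a-3p: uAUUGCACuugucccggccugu

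**Figure D1:**
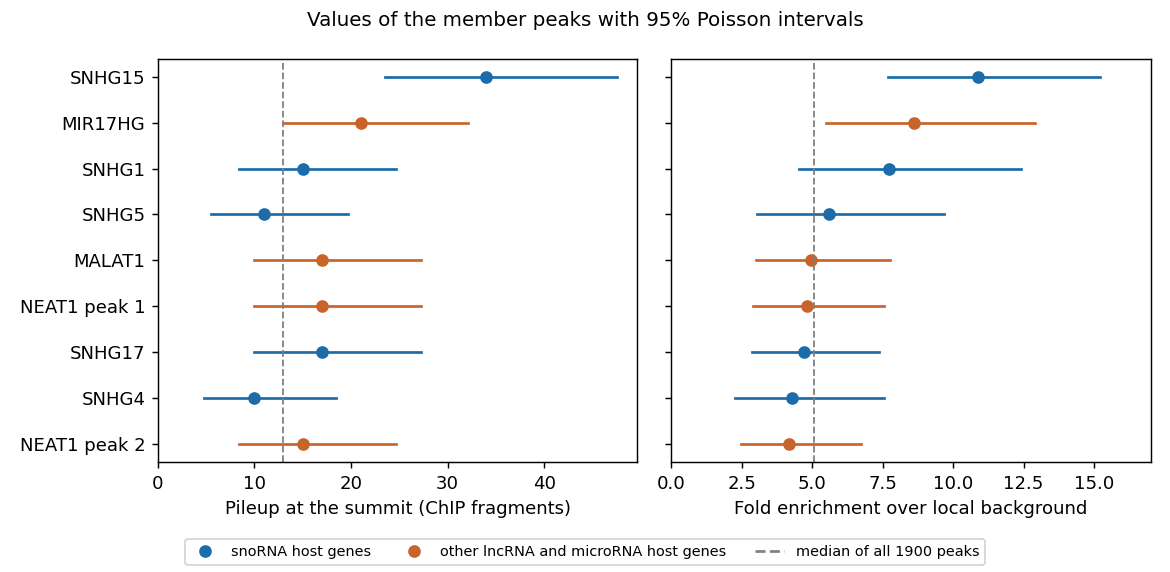
Pileup (left, ChIP fragments) and fold enrichment (right) of the 9 peaks, with 95% Poisson intervals as lines and the median of all 1900 peaks dashed. SNHG15 stands highest on both axes, and 8 of the 9 pileup intervals reach down to 13 fragments or below.

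The peaks of the 2 groups overlapped in every measure. Pileup had a median of 15 fragments at the 5 snoRNA host peaks (10 to 34) and 17 at the 4 others (15 to 21). Median fold enrichment was 5.61 (4.28 to 10.9) at the snoRNA host peaks and 4.88 (4.18 to 8.61) at the others. The snoRNA host values were the more spread, since they hold both the highest and the weakest peak by q-value. Over all 1900 peaks the medians were 13 fragments and a fold enrichment of 5.06, and over the 576 promoter peaks 13 fragments and 5.20, and the 9 member peaks, with medians of 17 fragments and 4.95, were near these. The fold enrichment interval of SNHG15 did not overlap those of SNHG4, SNHG17 and the 2 NEAT1 peaks, and it overlapped those of SNHG1, SNHG5, MALAT1 and MIR17HG.

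**Figure D2:**
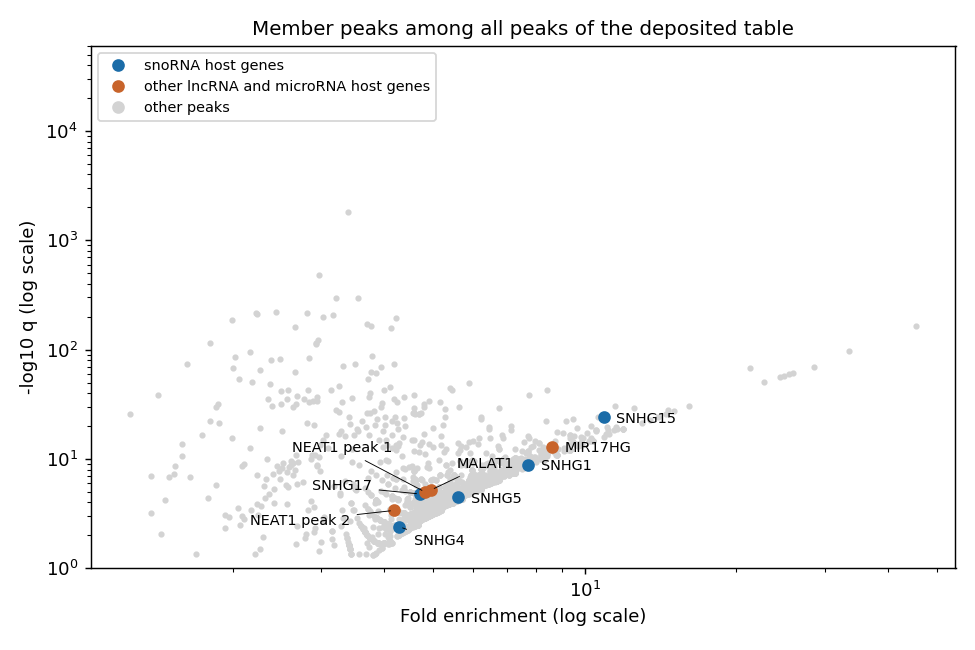
Fold enrichment (x) and -log10 q (y) of all 1900 peaks, both on log scales, with the 9 member peaks named and coloured by group. SNHG15, MIR17HG and SNHG1 sit at fold enrichments of 7.72 to 10.9, and the other 6 at 4.18 to 5.61. SNHG4 is the lowest of the 9 on the y axis.

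Of the 9 peaks, 4 had a promoter entry for the member (SNHG1, SNHG5, the upstream NEAT1 peak and MALAT1), and the others had an intron or an exon entry. At these others, SNHG4 excepted, another symbol listed at the peak had a promoter entry. Counted by any symbol in this way, 576 of all 1900 peaks were promoter peaks. All 9 member summits lay near a start. They ran from -465 bp at NEAT1 to +1430 bp at MIR17HG, with 4 upstream and 5 downstream. Every 31-base word under the 9 peaks occurred at a single place in the assembly, and none of the 9 peaks lay in a dense run of peaks.

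**Figure D3:**
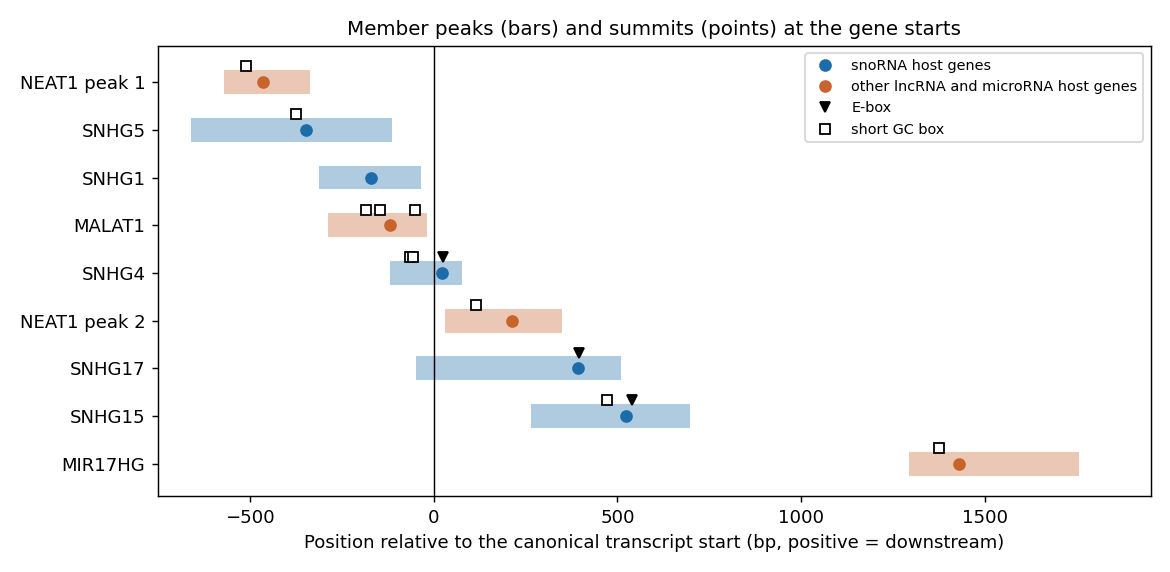
Extent (bars) and summit (points) of the 9 peaks in bp from the canonical transcript start, positive downstream, with CACGTG as triangles and GGGCGG as squares where they lie within 100 bp of the summit. The E-boxes of SNHG4, SNHG15 and SNHG17 stand on or beside the summit, and MIR17HG lies farthest downstream, at +1430 bp.

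Short words under the summits were counted in each group of this small set. CACGTG, which reads the same on both strands, lay within 100 bp of the summit at 3 of 5 snoRNA host peaks (SNHG4, SNHG15 and SNHG17) and at 0 of 4 others. It lay in 19.4% of the 1854 peaks on assembled chromosomes and in 26.8% of the 571 promoter peaks in the same window. Its centre was 2.5 bp from the summit at SNHG4, -17.5 bp at SNHG15 and -1.5 bp at SNHG17 in plus-strand coordinates, as printed above. SNHG5 had a CACGTG elsewhere in its peak, outside the window. In the RefSeq promoter sequences of GRCh38, from 250 bases before to 50 after the start, CACGTG was found for 1 of the 19 snoRNA host genes and 3 of the 10 other genes that have a sequence there, against 7.19% of 27305 promoters. None of the 6 members with both a peak and such a sequence had CACGTG in it. These sequences could not hold the E-boxes printed above. SNHG15 has no sequence there. The SNHG4 and SNHG17 summits were +52 and +341 bp from the RefSeq start, past the 50 bases. With 5 and 4 peaks no test was made, and a match is a description of the sequence only.

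The GC box was the commoner word. GGGCGG, searched on both strands, lay within 100 bp of the summit at 3 of 5 snoRNA host peaks (SNHG4, SNHG5 and SNHG15) and at all 4 others, against 43.9% of all peaks and 68.1% of promoter peaks. The longer GGGGCGGGG, which contains GGGCGG, was present at SNHG4 and MALAT1 alone among the members, and in 12% of all peaks. CATGTG, searched on both strands after the MIR17HG sequence had been read, lay at SNHG1 and MIR17HG, and in 13.1% of all peaks. At MIR17HG its centre was -2.5 bp from the summit. SNHG1 was the 1 member peak with neither CACGTG nor GGGCGG in the window.

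The 24 snoRNA symbols in the table stood at 18 peaks, and 8 of them stood at 4 member peaks. The other 14 of those peaks belong to genes outside the list. No small Cajal body RNA (SCARNA), the class that guides modification of spliceosomal RNAs, had an entry. The members that contain one, SNHG10, SNHG20, SNHG21 and SNHG22, were among the 27 of 35 members without a peak. Of 15 microRNA symbols at 12 peaks, 4 stood at the MIR17HG peak. At all 5 of these member peaks the summit was nearer to the start of an annotated host transcript than to the small RNA itself.

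Among the 27 members without an entry, the nearest summit lay 11356 bp (SNHG11) to 13725672 bp (FTX) from the canonical start, with a median of 306123 bp. SNHG11 is the neighbour of SNHG17, and the peak nearest to it was that of SNHG17. The 4 genes with a summit within 100000 bp were SNHG11, SNHG7 (34208 bp), SNHG20 (53942 bp) and SNHG12 (60217 bp). All are snoRNA host genes, as are 17 of these 27 members. The share of all genes at this distance is not given here, so the 4 are a description only. GAS5, a growth arrest transcript that hosts many box C/D snoRNAs, had its nearest summit at 4102225 bp, and ZFAS1 at 231779 bp. PVT1, the neighbour of MYC, had it at 3319333 bp. The imprinted genes MEG3 and H19 had it at 4387627 and 1194965 bp. HOTAIR, from the HOXC cluster, had it at 306123 bp, TUG1 at 208408 bp and NORAD, which binds Pumilio proteins, at 1295135 bp. DANCR and EPB41L4A-AS1, which each hold a snoRNA although they were grouped with the other lncRNAs, had theirs at 915759 and 3135686 bp. With a single ChIP library, no peak means that none passed the authors' q-value threshold of 0.05 at this depth.

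**Figure D4:**
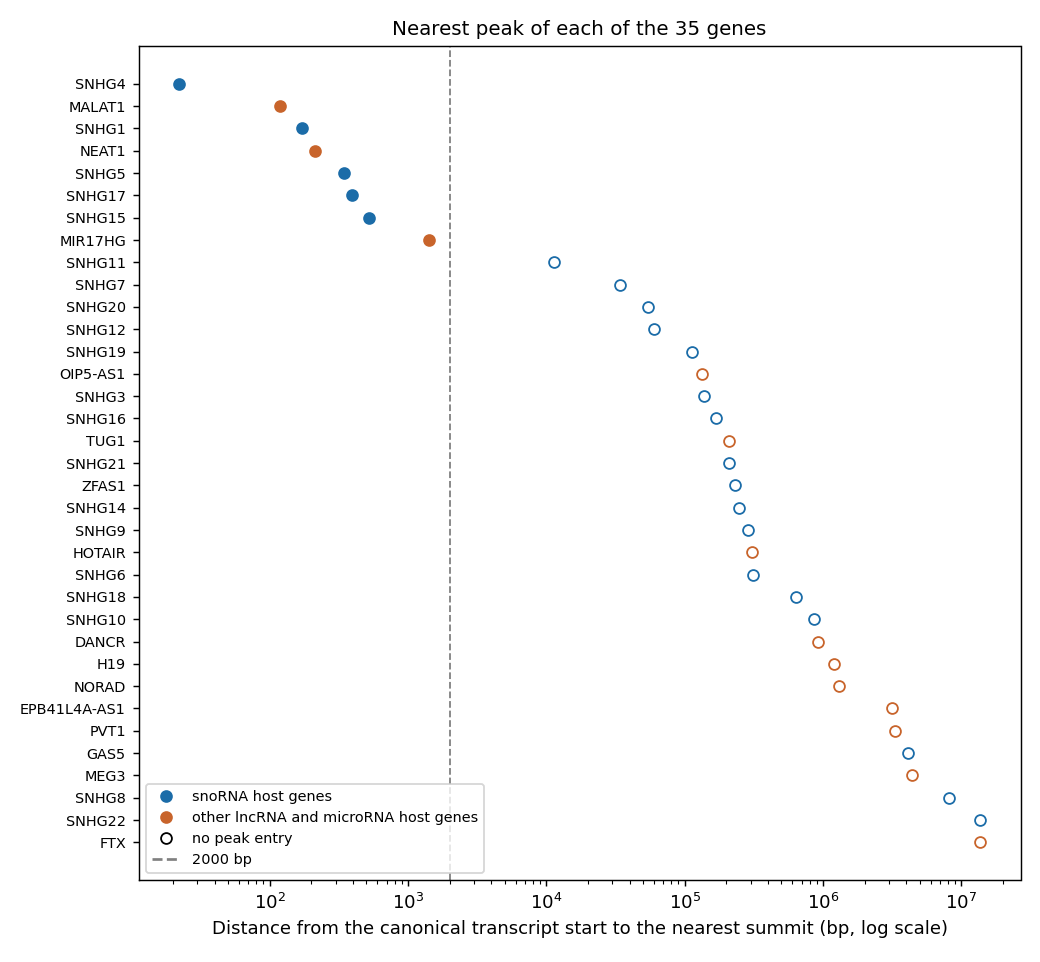
Distance in bp, on a log scale, from the canonical start of each of the 35 genes to its nearest summit, with filled points for genes with a peak entry, open points for those without, and a dashed line at 2000 bp. The 8 genes with an entry lie left of the line, and the next gene, SNHG11, lies at 11356 bp.

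The members were set beside all genes of their kind, counted by position. Of the 90 lncRNA genes of GENCODE v44 that contain a snoRNA gene, 9 had a summit within 2000 bp of the start (10.0%, 5.35 to 17.9%), against 1.58% of the other lncRNA genes. The members made up 5 of those 9. Among the 23 such genes on the list the share was 21.7%, and among the 67 off the list it was 5.97%. The list was drawn up with these peaks known, and the part of that choice in the gap was not tested. GENCODE v44 places no snoRNA gene inside GAS5 and lists TUG1 as protein-coding, so neither counts here. Of the 275 protein-coding genes that contain a snoRNA gene, 18.2% (14.1 to 23.2%) had a summit near the start, against 4.87% of the other protein-coding genes. Expression was not measured in these libraries, and the part of transcription level in these shares was not tested.

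**Figure D5:**
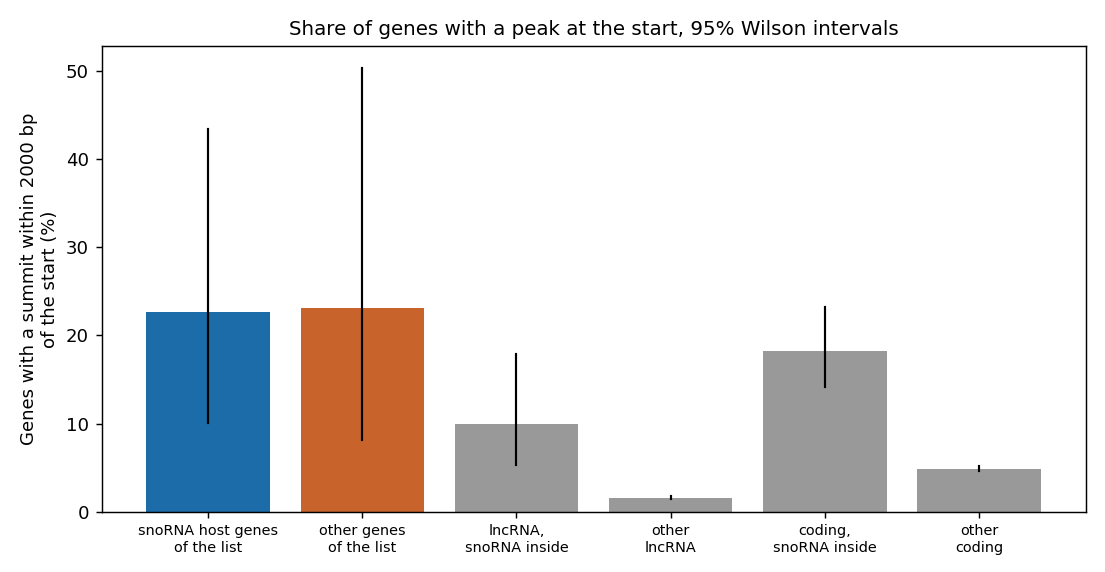
Percentage of genes with a summit within 2000 bp of the canonical start, with 95% Wilson intervals as lines, for the 22 snoRNA host genes and 13 other genes of the list and for all lncRNA and protein-coding genes with and without a snoRNA inside. The list's groups stand at 22.7% and 23.1% with wide intervals, and the snoRNA-containing classes (10.0% and 18.2%) stand above the others (1.58% and 4.87%).

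Genes whose products act on these RNAs also had peaks. The lists were drawn up with results of these data known, so their counts are descriptions, to be read beside the 6.19% of all protein-coding genes. Of 17 genes of the snoRNP core and its assembly, 4 had an entry (23.5%). They were FBL, the methyltransferase of box C/D particles (fold enrichment 4.55), NOP56 (5.05), NOP58 (5.21) and DKC1, the pseudouridine synthase of box H/ACA particles (4.81). FBL and NOP58 had CACGTG within 100 bp of the summit. None of these 4 stood out from the member peaks, with pileups of 9 to 12 fragments.

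Of 32 protein-coding genes known as snoRNA hosts, 18 had an entry (56.2%). The strongest were EIF4A1, a translation initiation helicase (fold enrichment 11.5, 23 fragments), and NCL, the gene of nucleolin (10.5, 26 fragments), which had 3 CACGTG words in the window. RPL21, a ribosomal protein gene, followed with 9.65 and 19 fragments. NOP56 and DKC1 count in this list as well as in that of the snoRNP genes. SNHG15 at 10.9 lay in the range of EIF4A1 and NCL, and the other snoRNA host members lay nearer the median of 5.12 of these 18 peaks. CACGTG was present at 7 of the 18.

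Some but not all listed genes of paraspeckle proteins, which assemble on NEAT1, had entries. Among those with an entry were RBM14 (fold enrichment 5.16), HNRNPK (7.82 and 5.55 at 2 peaks) and MATR3. The first MATR3 peak is the one shared with SNHG4 (4.28), and the second lay in an intron (4.88). For microRNA processing, 2 of 7 genes had an entry (28.6%), namely DGCR8 (4.86) and AGO2 (5.11 and 4.76), all in introns.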

How the data were processed

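ChIP-seq of CAL27 cells with myc-KLF7 comprised 1 anti-MYC ChIP and 1 input library. The authors trimmed reads with Trimmomatic, mapped them with BWA, called peaks by MACS2 at a q-value of 0.05 and annotated them. The labels name hg38, and of the 1397 nearest genes listed, 1075 matched GENCODE v44 by symbol and chromosome, 629 of them with the same start once starts counted from 0 were shifted by 1. The deposited pileup is a signal of ChIP fragments at the summit. The deposited fold enrichment is a ratio to the local background. The deposited -log10 q-value is the authors' adjusted Poisson p-value. Read totals were not used here, and pileups of 10 to 34 fragments set the precision.

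From the table, peaks were matched to exact symbols, and every matched gene, genes listed at the same peak, and genes with an entry from lists of related function were eligible to be named. The background rate was recovered from pileup and fold enrichment. Distances were taken from GENCODE v44, with RefSeq starts beside them, and GRCh38 was searched for motifs in windows of 100 bp to each side of a summit. Words of 31 bases were counted over the assembly. Members and lists were chosen with earlier results of these data known, so no test was made. Some results on related and neighbouring genes, with the count of the paraspeckle list, are not reported here. Alternatives covered stricter thresholds, other entries, starts, groupings and windows. Computations used Python 3.11.15 with numpy 2.4.6, scipy 1.17.1, numba 0.67.0 and matplotlib 3.10.9.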

Additional observations from a re-analysis of the deposited data

How the results depend on the processing

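Of 32 alternatives over 6 results, 28 were counted as unchanged. The limit for a count was 1.5 times. For median fold enrichment it was a Poisson counting interval, 3.04 to 9.68 at the snoRNA host peaks and 2.96 to 7.65 at the others. Some of the 28 could not have moved. DANCR and EPB41L4A-AS1 have no peak to regroup, and every member peak reached the pileup threshold of 10 fragments. Each snoRNA host gene with an entry had a single peak, so taking its strongest changed nothing. With a fold enrichment of at least 5, the snoRNA host genes with an entry numbered 3 in place of 5 and the other genes 1 in place of 3. This threshold kept 4 of the 9 member peaks and 997 of all 1900 peaks. With promoter entries only, under the member's own symbol, the snoRNA host genes numbered 2 and the other genes 2. Of all 1900 peaks, 576 had a promoter entry of any symbol. Within 50 bp of the summit, GGGCGG stood at 3 member peaks in place of 7, and CACGTG at the same number, 3. In this narrower window GGGCGG lay in 29.2% of all peaks on assembled chromosomes and in 47.6% of promoter peaks. The shares for CACGTG were 13.2% and 18.6%. A q-value under 0.001 removed the SNHG4 peak alone among the members, and kept 1552 of all 1900 peaks. A start at any annotated transcript and the search for CATGTG were added after the data had been seen. No paired analysis was possible because the design holds 1 ChIP and 1 input library. At pileups of 10 to 34 fragments, the interval of the strongest fold enrichment, 10.9 at SNHG15, still overlapped that of MALAT1 at 4.95.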

Other observations

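Of 8 further SNHG genes in GENCODE v44 that are not on the list, SNHG25 to SNHG32, 2 had a peak entry. Both are named here after their values were seen. Over all lncRNA genes, 0.572% had an entry under their symbol. By position, 1.62% of all lncRNA genes and 10.0% of those that contain a snoRNA gene had a summit within 2000 bp of the start. With 8 genes the count is a description. SNHG25 had a peak at chr17:64146242-64146473 with 10 fragments (4.80 to 18.4), a fold enrichment of 4.51 and its summit at +323 bp from the canonical start, with a short GC box and no CACGTG in the window. SNHG26 had a peak at chr7:22854246-22854439 with 13 fragments (6.92 to 22.2), a fold enrichment of 4.35 and its summit at +159 bp, with a CACGTG in the window. The other 6 had no summit within 2000 bp of the start.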
